A study of Homo sapiens with 6 samples.

Results

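The genes described here are IGF1R, IGF2R, PIK3R3, SGK1 and RPS6KB1, 5 genes of insulin, IGF and PI3K signalling out of 11584 genes read from 6 Affymetrix expression arrays (U133 Plus 2.0). They were chosen with their values known: IGF1R, IGF2R, PIK3R3 and SGK1 for their differences after LIN28B knockdown, and RPS6KB1 for its difference after induction of LIN28B. Their values are therefore given as a description, with no test. Each was read by 1 probe set (a group of short oligonucleotides for 1 transcript) in the table of values used.

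All arrays held total RNA of the human embryonic kidney line HEK293 in its T-REx Flp-In form, with a stably integrated FLAG/HA-tagged LIN28B transgene under doxycycline control. The study compared transcript levels after LIN28B depletion with those of mock-transfected cells, with 2 arrays in each of 3 groups. The first group was mock transfected with the transgene not induced, the second was mock transfected with the transgene induced, and the third was transfected with siRNA against LIN28B with the transgene not induced. For crosslinked cells the protocols state induction with 250 ng/ml doxycycline over 15 to 20 h. They state no induction time for the array cells, and do not say whether the line is 1 clone or whether replicates were separate cultures. The mock arrays carried no control siRNA, so siRNA transfection and loss of LIN28B cannot be told apart.

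Insulin and the insulin-like growth factors bind receptor tyrosine kinases, whose adaptor proteins recruit PI3K. The lipid that PI3K makes activates PDK1 and AKT at the membrane, and the mTOR complexes then drive S6 kinase and related kinases that promote protein synthesis and growth, while FOXO factors are kept out of the nucleus. LIN28 proteins block maturation of let-7 microRNAs and also bind mRNAs directly. Components of this pathway, among them IGF1R, INSR and IRS2, have been described as let-7 targets, and LIN28 proteins are known to change insulin sensitivity and glucose use in animals.

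The let-7 sequences are shown because they are the RNAs through which LIN28B is best known to reach this pathway. The 8 distinct 5p mature let-7 sequences of the RefSeq table (GRCh38.p14) shared 1 seed, bases 2 to 8, set in capitals in these examples.
let-7a: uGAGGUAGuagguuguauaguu
let-7d: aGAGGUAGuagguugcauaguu
let-7g: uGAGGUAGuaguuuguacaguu
LIN28 proteins are known to bind the precursor loop at the letters GGAG. Of 11 let-7 hairpins in the table, 9 held GGAG after the 5p arm, as in let-7g (chr3:52268278-52268361, minus strand), where it is in capitals, and let-7a-3 (chr22:46112749-46112822, plus strand) did not.
let-7g hairpin: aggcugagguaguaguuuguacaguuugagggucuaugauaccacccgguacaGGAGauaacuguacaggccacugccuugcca
let-7a-3 hairpin: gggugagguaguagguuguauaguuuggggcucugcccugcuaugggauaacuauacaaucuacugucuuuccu
The levels of let-7 itself were not analysed here.

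The values are the authors' GCRMA values on the log2 scale, on which a difference of 1 is a doubling. Array medians lay between 7.126 and 7.177. LIN28B read 10.02 and 9.85 in the cells not induced, 10.15 and 10.11 in the induced cells and 7.51 and 7.53 after siRNA. Induction thus went with a log2 difference of only 0.19 (SE 0.08) on its 1 probe set. Whether that probe set reads the tagged transgene was not tested, so these arrays do not show how far it was induced. Of 8 genes listed as markers of HEK293 cells, 6 were in the table (VIM, KRT8, KRT18, NEFL, CDH2 and LIN28B), while NEFM and PAX2 were not. Besides LIN28B, NEFL (-0.59) and VIM (-0.18) fell and KRT8 (0.38) rose after siRNA by limma (adjusted p 0.000113, 0.0121 and 0.0271), and their part in the results was not tested. Of the markers of other cell types, HBB was the only one of 5 blood genes and COL1A1 the only one of 5 fibroblast genes in it, with array values of 4.93 to 5.18 and 5.96 to 6.28. Of 4 endothelial and of 5 liver, muscle and fat genes 0 were in it. RNA came from whole cultures, so fewer cells of a kind and less RNA per cell cannot be told apart. In the fit with limma over all genes, 28% of 11584 were called different between siRNA and not induced cells at an adjusted p under 0.05 (13.5% higher, 14.5% lower). Of the 5 genes, 2 lay above and 2 below all 4 mock arrays after siRNA, where 27.1% of all genes lay above and 26% below, or 53.1% together. The choice of the 5 used these values, so nothing is read from their count.

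Both receptors were lower after LIN28B siRNA. IGF1R encodes the receptor tyrosine kinase for IGF1 and IGF2. It read 6.62 and 6.96 in the cells not induced, 6.73 and 6.73 in the induced cells, and 6.39 and 6.04 after siRNA. Both siRNA arrays lay under all 4 mock arrays, with a gap of 0.23, and the SD was 0.24 in the cells not induced and 0.25 after siRNA (n = 2 each). The log2 difference was -0.57 (SE 0.16, n = 2 each) against the cells not induced, or 67.2% of their level, and -0.51 against the induced cells. Induction itself went with a difference of -0.06 (SE 0.16). The size depended on single arrays: against the cells not induced it was -0.74 without not induced replicate 1 and -0.40 without replicate 2, and -0.75 without siRNA replicate 1 and -0.40 without replicate 2.

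IGF2R encodes the cation-independent mannose 6-phosphate receptor, which clears IGF2 from the cell surface and carries lysosomal enzymes, and has no kinase domain. It read 6.99 and 7.27 in the cells not induced, 7.05 and 7.23 in the induced cells, and 6.76 and 6.67 after siRNA. The siRNA arrays again lay under all 4 mock arrays, by 0.23, and the mock groups had nearly the same mean, 7.13 and 7.14. The log2 difference was -0.41 (SE 0.13) against the cells not induced and -0.42 (SE 0.13) against the induced cells, and it was -0.55 and -0.28 without not induced replicate 1 and 2. In both receptors replicate 2 of the cells not induced read higher than replicate 1. The probe set of IGF2R is of a kind that can pick up related transcripts.

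PIK3R3 was higher after siRNA, and its replicates lay close, with SDs of 0.03 to 0.05 in the 3 groups. It encodes p55-gamma, a regulatory subunit that holds the PI3K catalytic subunit and docks it on phosphorylated receptors and adaptors. It read 7.05 and 6.99 in the cells not induced, 6.92 and 6.85 in the induced cells, and 7.52 and 7.55 after siRNA. The siRNA arrays stood 0.47 above the highest mock array, while all 4 mock arrays spanned 0.20. The log2 difference was 0.52 (SE 0.10), a 1.43-fold higher level, against the cells not induced and 0.65 (SE 0.10) against the induced cells. It stayed between 0.49 and 0.54 when any 1 array was left out. The probe set can pick up related transcripts, and RefSeq lists the readthrough gene P3R3URF-PIK3R3 at the same place, from which it cannot be told apart here.

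SGK1 was higher after siRNA as well. It encodes serum- and glucocorticoid-regulated kinase 1, which acts downstream of PI3K and mTOR complex 2 and whose mRNA is short-lived and rises with serum, glucocorticoids and osmotic stress. It read 6.50 and 6.03 in the cells not induced, 6.52 and 6.58 in the induced cells, and 7.05 and 6.90 after siRNA. Both siRNA arrays lay 0.32 or more above all mock arrays, but the cells not induced had an SD of 0.34, so the order of the mock groups is not settled beyond their spread. The log2 difference was 0.71 (SE 0.16), a 1.63-fold higher level, against the cells not induced and 0.42 (SE 0.16) against the induced cells. Against the cells not induced it was 0.47 without their replicate 2 and 0.95 without their replicate 1.

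RPS6KB1 had another pattern, with low values in the induced cells and not after siRNA. It encodes S6 kinase 1, which mTOR complex 1 activates and which phosphorylates ribosomal protein S6. It read 7.32 and 7.32 in the cells not induced, 6.84 and 6.84 in the induced cells, and 7.29 and 7.13 after siRNA. Both induced arrays lay below the other 4, and the SD was 0.0026 in the cells not induced and 0.0054 in the induced cells. The share of all genes with induced arrays apart from the other 4 was not counted, so nothing is read from this separation. The SDs rest on few arrays and are far smaller than the SE from the model. The log2 difference for induction was -0.48 (SE 0.11), or 71.7% of the level without induction, and the one for siRNA was -0.11 (SE 0.11). No gene of the 11584 was called by limma for induction (0%), where 344 had an unadjusted p under 0.05. RPS6KB1 was picked from that comparison, and nothing is read from its rank there.

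**Figure D1:**
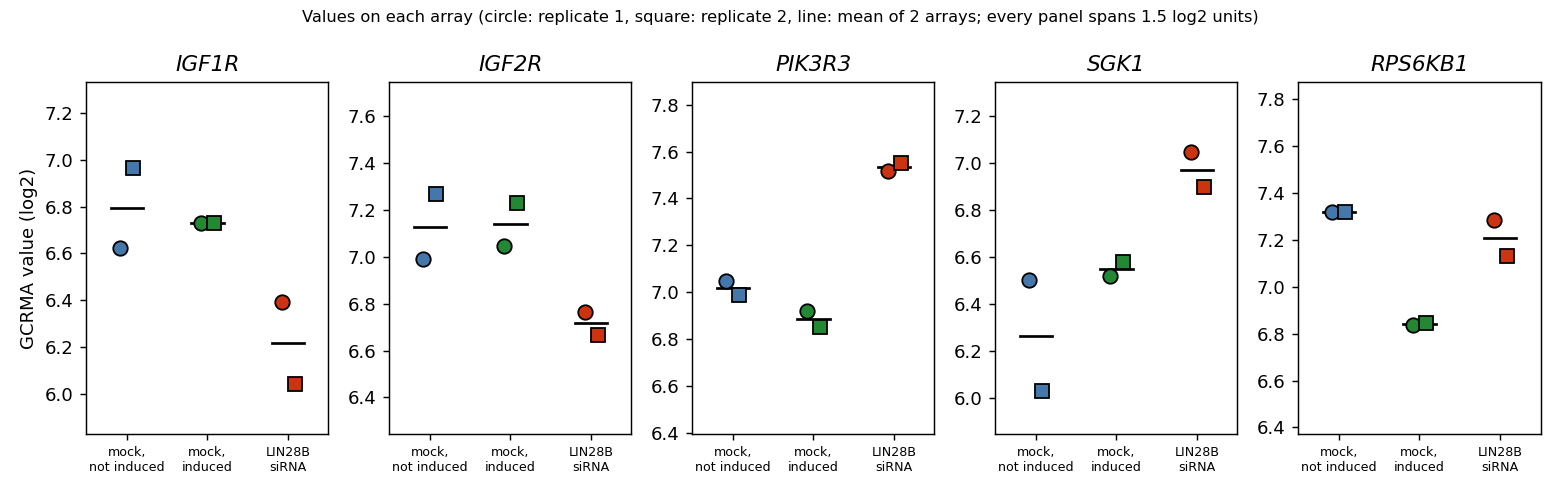
Log2 GCRMA values of the 5 genes on each of the 6 arrays, 1 panel per gene, with the 3 groups on the horizontal axis, replicate 1 as circles, replicate 2 as squares and lines at group means. IGF1R and IGF2R lie lowest after siRNA (6.22 and 6.72 on average), PIK3R3 and SGK1 highest (7.53 and 6.97), and RPS6KB1 lowest in the induced cells (6.84).

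**Figure D2:**
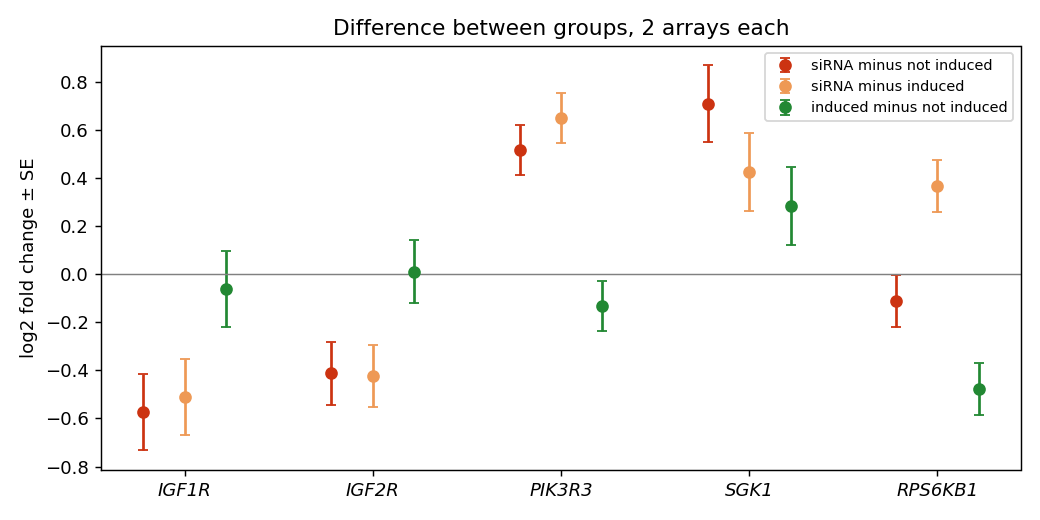
Log2 differences between groups with their SE from the model, 2 arrays a group, for the 5 genes on the horizontal axis. For IGF1R, IGF2R, PIK3R3 and SGK1 the siRNA differences have 1 sign against both mock groups, which share the siRNA arrays, and for RPS6KB1 the induction difference of -0.48 is the largest of its 3.

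Ordered by group, IGF1R and IGF2R were lowest after siRNA with both mock groups overlapping above. PIK3R3 was lowest in the induced cells, slightly higher in the cells not induced and highest after siRNA, with no overlap between groups. For SGK1 the not induced and induced arrays did not overlap either, but lay side by side at their nearest. For RPS6KB1 the siRNA and the not induced groups did not overlap but lay close. The share of all genes whose single groups separate in these ways was not counted. Nothing is therefore read from the order of these groups. Centred on their own means over the 6 arrays, IGF1R and IGF2R differed by a root mean square of 0.113 log2 units, the smallest among the 10 pairs of these genes, and PIK3R3 and SGK1 by 0.219. The widest pair was IGF1R and SGK1, at 0.594.

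By the same measure over 6 arrays, the 3 nearest of all other genes to IGF1R were PPDPF, PYCR3 and SLC25A1, at 0.0524 to 0.0536. PYCR3 is an enzyme of proline synthesis and SLC25A1 the mitochondrial citrate carrier. Nearest to IGF2R were the Wnt receptor genes FZD5 (0.0257) and FZD7 (0.0377) and the retrieval receptor gene KDELR1 (0.0402). Nearest to PIK3R3 were OTUD3, a deubiquitinase gene (0.014), ZNF211 (0.0259) and NAGK (0.0314). For SGK1 they stood further off: SYT1, a synaptic calcium sensor gene, ATP8A2 and the histone gene H2AC14 stood at 0.0665 to 0.074. For RPS6KB1 they were FBXL14 (0.0544), PCSK4 (0.068) and APBB1 (0.0798). These genes were picked for likeness among all genes, and the distances describe these 6 arrays.

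**Figure D3:**
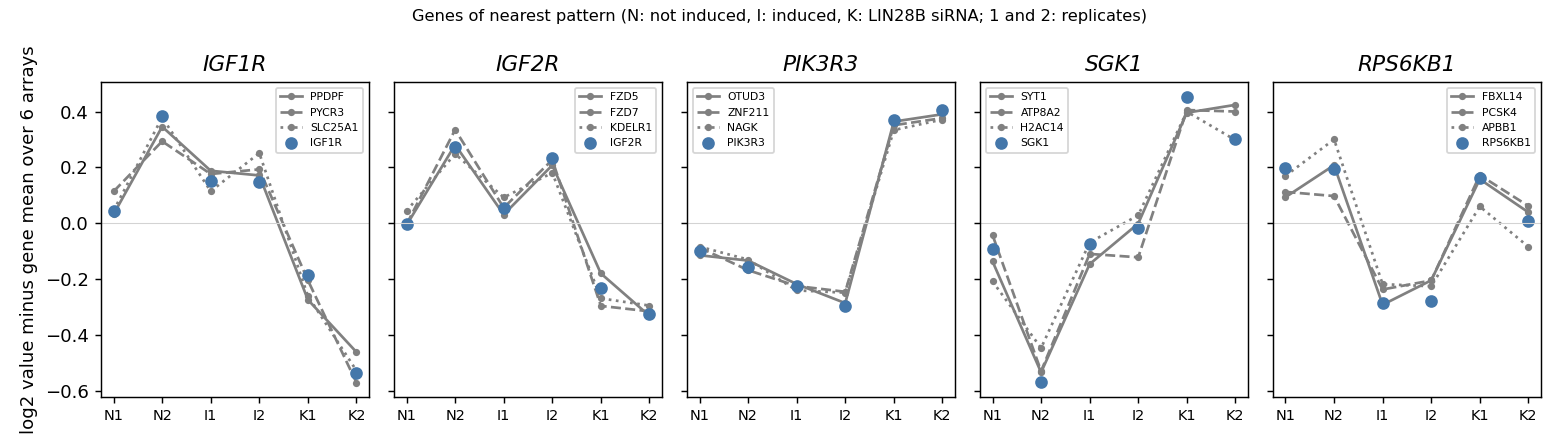
Log2 values minus each gene's mean over the 6 arrays (vertical axis) on each array (horizontal axis), for the 5 genes as blue points and for the 3 nearest genes of each as grey lines. PIK3R3 and OTUD3 run closest together (0.014), and the genes nearest to SGK1 share its low value on not induced replicate 2.

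The promoters of 3 of the genes are printed because they differ in the motifs they hold, which were picked after the sequences were seen. All 5 genes matched the RefSeq promoter table, and windows are the 250 bases before an annotated start in GRCh38.p14, searched on both strands. The IGF2R window (chr6:159968832-159969081, plus strand) held CACGTG, the E-box letters that MYC and TFEB family factors are known to bind, 3 times, in capitals here, starting 132, 74 and 28 bases before the start.
IGF2R: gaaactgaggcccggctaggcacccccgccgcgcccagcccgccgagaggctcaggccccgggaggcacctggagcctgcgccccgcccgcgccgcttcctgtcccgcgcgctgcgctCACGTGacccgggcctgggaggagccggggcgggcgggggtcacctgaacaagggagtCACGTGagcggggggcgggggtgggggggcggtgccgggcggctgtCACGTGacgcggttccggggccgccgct
Of all 35116 windows 6.34% held CACGTG and 0.0797% held it 3 times or more. The RPS6KB1 window (chr17:59892871-59893120, plus strand) held TGCGCA, part of the letters bound by NRF1, 3 times, against 6.89% of windows with 1 or more and 0.122% with 3 or more.
RPS6KB1: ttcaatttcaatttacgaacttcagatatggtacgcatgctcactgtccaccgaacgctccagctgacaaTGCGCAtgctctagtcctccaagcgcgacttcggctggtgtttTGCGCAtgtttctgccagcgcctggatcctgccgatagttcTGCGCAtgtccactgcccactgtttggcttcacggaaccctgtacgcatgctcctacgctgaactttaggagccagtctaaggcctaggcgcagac
SGK1 has 3 starts in the table, each with TATAAA or its reverse complement TTTATA within the 250 bases, against 10.7% of all windows. In the GC-rich one (chr6:134174867-134175116, minus strand), in which 76.0% of bases are G or C, it began 27 bases before the start. GGGCGG occurred 6 times there, as it did in the IGF2R window. Of all windows 13.9% held GGGCGG 3 times or more, and the share with 6 was not counted. The windows were not matched for their G and C.
SGK1: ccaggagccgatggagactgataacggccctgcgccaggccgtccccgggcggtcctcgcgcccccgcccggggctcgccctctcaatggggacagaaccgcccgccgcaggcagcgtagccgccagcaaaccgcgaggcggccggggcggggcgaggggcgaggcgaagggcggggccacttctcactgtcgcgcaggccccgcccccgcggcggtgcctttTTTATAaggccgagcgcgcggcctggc
The IGF1R window held GGGCGG 2 times and none of the other motifs named, and 81.2% of its bases were G or C. PIK3R3 has 6 starts in the table, and which of them HEK293 cells use was not tested. A match describes letters only.

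The rest of the pathway was followed in 137 further genes, listed by role, of which 112 were in the table. The lists were chosen with earlier results of these data known, so nothing is read from the counts of any list. After siRNA 14 of the 112 rose and 12 fell against the cells not induced, and 86 did not pass (limma adjusted p under 0.05 over all genes). The called share was 23.2%, against 28% of all genes, and the median log2 difference was -0.02, against 0.01 over all genes. The sign of the pathway median turned with arrays centred on their medians, to 0.01. That scaling moves every gene's difference by the same amount, so the pathway median kept its distance below that of all genes. Against the induced cells 15 rose and 16 fell, or 27.7%, where 28.4% of all genes were called. The siRNA arrays lay apart from all 4 mock arrays for 58.9% of the 112, with 28 above and 38 below, against 53.1% of all genes. These comparisons share the siRNA arrays. For induction 0 of the 112 were called by limma, as were 0 of all 11584 genes. By limma 0 of the 112 had an unadjusted p under 0.05, against 344 of all 11584 genes. That is a small share of all genes, and nothing is read from this difference.

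**Figure D4:**
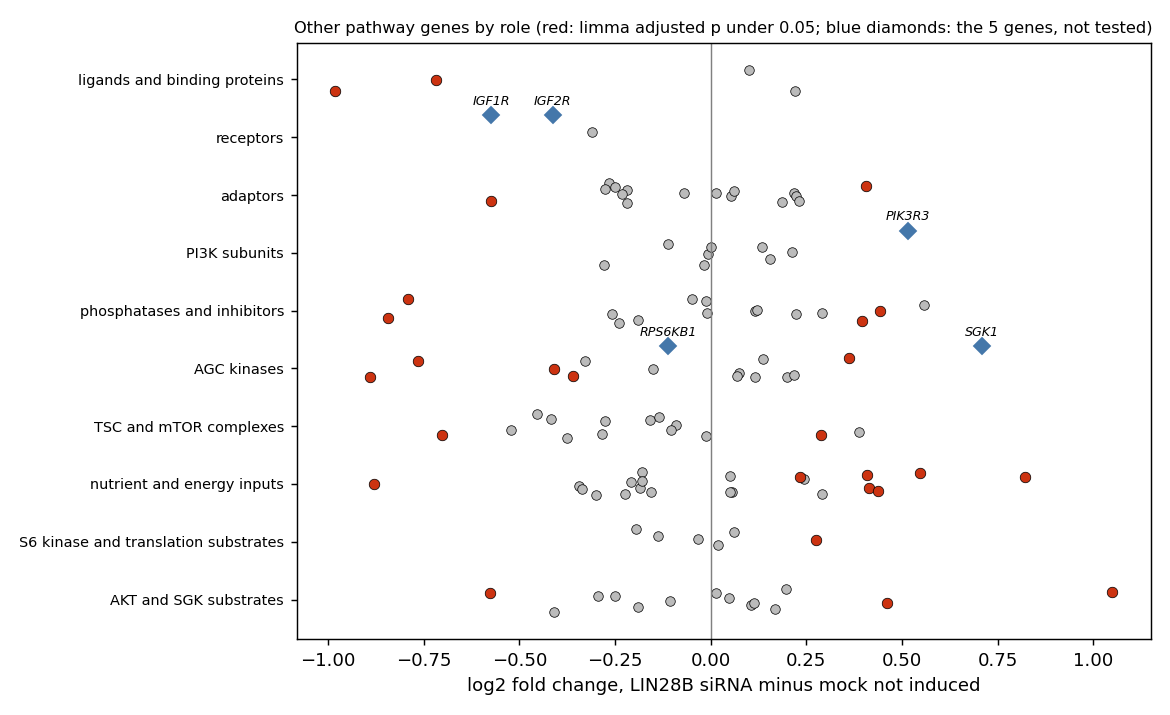
Log2 difference between siRNA and not induced cells (horizontal axis) for 112 other pathway genes grouped by role, each point 1 gene and red where limma called it, with the 5 genes of the report as blue diamonds. Called genes lie on both sides of 0, from IGFBP7 at -0.98 to CDKN1B at 1.05, and no receptor or PI3K subunit of the lists is red.

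Among ligands and binding proteins, 4 of 11 genes were in the table, and IGF1, IGF2 and INS were not among them. IGFBP7, a secreted protein that binds IGFs weakly, fell from 6.23 ± 0.0055 to 5.25 ± 0.11 (SD, n = 2), a log2 change of -0.98 (SE 0.14, limma adjusted p = 0.000842). IGFBP2, which binds IGFs in the medium, fell from 7.36 ± 0.24 to 6.64 ± 0.03 (-0.72, limma adjusted p = 0.00282). IGFBP5 and IGFBP6 did not pass, so 50% of these 4 were called, against 28% of all genes. The insulin receptor gene INSR, the closest relative of IGF1R, had a log2 difference of -0.31 (SE 0.14, limma adjusted p = 0.13) and did not pass. Both its siRNA arrays, 6.32 and 6.36, lay below all 4 mock arrays, as they did for 26% of all genes.

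Of 16 adaptor genes, 1 rose, 1 fell and 14 did not pass, or 12.5% called, against 28% of all genes. GRB14, an inhibitor of insulin receptor kinase activity, fell by 0.57 (limma adjusted p = 0.0124), and SOS1, the exchange factor that links receptors to RAS, rose by 0.41 (limma adjusted p = 0.0265). Of 8 PI3K subunits and regulators measured beside PIK3R3, 0 passed by limma, against 28% of all genes. By limma 1 of the 8 had an unadjusted p under 0.05, against 4562 of all 11584 genes. The closest relative of PIK3R3, PIK3R1, had -0.28 (SE 0.12) and the catalytic subunit gene PIK3CD 0.21 (SE 0.23). SOS1 lost its call without not induced replicate 2 and without either siRNA array (limma adjusted p 0.0708 to 0.16), and GRB14 without siRNA replicate 2 (limma adjusted p = 0.102).

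Of 15 phosphatases and inhibitors, 2 rose and 2 fell, or 26.7% called, against 28% of all genes. PTPN2, a phosphatase that dephosphorylates insulin and cytokine receptors, fell from 8.55 ± 0.08 to 7.71 ± 0.09 (-0.84, SE 0.10, limma adjusted p = 0.000303). TRIB1, a pseudokinase of the tribbles family, fell by 0.79 (SE 0.09), and PPP2CB, a catalytic subunit of protein phosphatase 2A, rose by 0.44 (SE 0.05). PHLPP2, which dephosphorylates AKT, rose by 0.40 (limma adjusted p = 0.0373) but had 0.26 without siRNA replicate 2 (limma adjusted p = 0.255), and did not pass without not induced replicate 1 or either induced array.

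SGK1 and RPS6KB1 belong to the AGC kinases. Of 13 others measured, 1 rose, 4 fell and 8 did not pass, or 38.5% called, against 28% of all genes. Falls made up 30.8% of the 13, against 14.5% of all genes. The atypical protein kinase C gene PRKCI fell from 8.78 ± 0.17 to 7.89 ± 0.0023 (-0.89, SE 0.10, limma adjusted p = 0.000233), and RPS6KA4, which encodes the histone kinase MSK2, fell by 0.76 (SE 0.13). AKT1 fell by 0.41 (limma adjusted p = 0.0419) and PRKCZ rose by 0.36 (limma adjusted p = 0.0436), both near the threshold. AKT1 had -0.24 without not induced replicate 2 (limma adjusted p = 0.197) and also lost its call without either induced or either siRNA array and under both other scalings. PRKCZ lost it without not induced replicate 1 and without either siRNA array. RPS6KA5, named after its value was seen, fell by 0.36 (limma adjusted p = 0.0455) and lost its call when any array other than not induced replicate 2 was left out (limma adjusted p 0.051 to 0.279). The relatives of SGK1 and RPS6KB1, SGK2 and RPS6KB2, had 0.22 and 0.14 and did not pass.

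Of 14 genes of the TSC and mTOR complexes, 1 rose, 1 fell and 12 did not pass. The called share was lower than the 28% of all genes. MLST8, a subunit of both mTOR complexes, fell from 9.06 ± 0.01 to 8.36 ± 0.10 (-0.70, SE 0.08, limma adjusted p = 0.000298). TSC1, which restrains mTOR complex 1 through RHEB, rose by 0.29 (limma adjusted p = 0.0338), and lost that call without not induced replicate 1, either induced array or either siRNA array. MTOR had -0.45 (limma adjusted p = 0.0676).

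Nutrient and energy inputs to mTOR complex 1 held 6 genes that rose and 1 that fell of 21 measured, or 33.3% called, against 28% of all genes, of which 13.5% rose and 14.5% fell. The fall was in PRKAA1, the AMPK catalytic subunit, from 6.14 ± 0.13 to 5.26 ± 0.11 (-0.88, SE 0.15, limma adjusted p = 0.00206). RRAGD, a Rag GTPase that brings mTOR complex 1 to the lysosome, read 9.34 and 9.33 in the cells not induced, 9.29 and 9.41 in the induced cells, and 10.17 and 10.15 after siRNA. It rose by 0.82 (SE 0.07, limma adjusted p = 7.04e-05). Its partner genes RRAGC and RRAGA rose by 0.44 and 0.23, and LAMTOR3 and LAMTOR5, of the Ragulator scaffold that anchors Rag GTPases, by 0.55 and 0.41. Among the other Ragulator genes measured, LAMTOR2 and LAMTOR4 had 0.06 and 0.05 and did not pass. PRKAG2, an AMPK regulatory subunit gene, also rose (0.41). RRAGA, LAMTOR2, LAMTOR4, LAMTOR5 and PRKAG2 were named after their values were seen. RRAGA lost its call without siRNA replicate 2 (limma adjusted p = 0.0953), and PRKAG2 without not induced replicate 1, either induced or either siRNA array.

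Downstream, 1 of 6 translation substrates rose: EIF4B, an initiation factor that S6 kinase phosphorylates, by 0.28 (SE 0.06, limma adjusted p = 0.00581, and 0.0574 without siRNA replicate 2). The called share of the translation substrates was 16.7%, against 28% of all genes. Of 14 AKT and SGK substrates, 2 rose and 1 fell, or 21.4% called. CDKN1B, which encodes the cell cycle inhibitor p27, read 9.57 and 9.48 in the cells not induced, 9.67 and 9.64 in the induced cells, and 10.69 and 10.46 after siRNA. It rose by 1.05 (SE 0.08, limma adjusted p = 5.32e-05), the largest rise among the 112 genes. NDRG1, a known SGK1 substrate, fell by 0.58 (SE 0.10), and BAD, a pro-apoptotic AKT substrate, rose by 0.46, which did not pass without siRNA replicate 2 (limma adjusted p = 0.122).

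Pathway genes described as let-7 targets beside IGF1R were all in the table. Of these 6, TSC1 rose and INSR, IRS2, PIK3IP1, AKT2 and RICTOR did not pass, with log2 differences from -0.31 in INSR to 0.39 in RICTOR and a median of -0.13. The called share was 16.7%, against 28% of all genes. Of the IGF2 mRNA-binding proteins, IGF2BP2 fell by 0.38 (SE 0.09, limma adjusted p = 0.0114), or by 0.25 without not induced replicate 2, and did not pass without siRNA replicate 1 (limma adjusted p = 0.105). IGF2BP1 and IGF2BP3 did not pass, so 33.3% of these 3 were called.

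Around IGF2R, 17 genes that sort lysosomal enzymes by mannose 6-phosphate were measured. Of these 3 rose and 0 fell, or 17.6% called, against 28% of all genes, of which 14.5% fell. By limma 4 of the 17 had an unadjusted p under 0.05, against 4562 of all 11584 genes. GNPTG, a subunit of the enzyme that starts the mannose 6-phosphate tag, rose by 0.71 (SE 0.12, limma adjusted p = 0.00202), AP1G1, an adaptor of Golgi to endosome transport, by 0.58 and the retromer-associated sorting nexin gene SNX1 by 0.45. AP1G1 did not pass without siRNA replicate 2 (limma adjusted p = 0.0537).

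Around SGK1, a list of genes of the glucocorticoid and osmotic stress responses, which holds regulators as well as induced genes, had 12 members measured. Of these 2 rose and 5 fell, or 58.3% called, against 28% of all genes, and the median log2 difference was 0.03. The list was chosen with earlier results of these data known, so nothing is read from this share. The largest changes were falls, in the inositol carrier SLC5A3 (-0.97, SE 0.09) and the taurine carrier SLC6A6 (-0.86, SE 0.12), both induced by osmotic stress, and in FKBP5 (-0.73, SE 0.09) and KLF9 (-0.56, SE 0.13), listed for the glucocorticoid response, with limma adjusted p from 0.000114 to 0.0109. NR3C1, the glucocorticoid receptor gene, rose by 0.56 (SE 0.07) as did MT2A, a metallothionein gene, by 0.47, and CEBPD, a transcription factor gene, fell by 0.47 (limma adjusted p = 0.0119, and 0.0944 without siRNA replicate 1). The 5 that did not pass were CDKN1C (0.35), DUSP1 (0.21), TSC22D3 (0.07), NFAT5 (0.04) and ERRFI1 (0.02). The list thus held rises, falls and genes that did not pass. NR3C1, MT2A, CEBPD and these 5 were named after their values were seen. KLF9 did not pass without siRNA replicate 2 (limma adjusted p = 0.0686). Of 8 FOXO target genes measured, 1 fell, or 12.5% called, against 28% of all genes. It was KLF6, by 0.45 (limma adjusted p = 0.0213). KLF6 had -0.36 without siRNA replicate 1 and -0.42 without not induced replicate 2, and did not pass in either. CCNG2 had 0.40 (limma adjusted p = 0.0589).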

How the data were processed

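Total RNA (2 µg per sample, labelled with biotin) was measured on 6 arrays. The deposited log2 values per probe set were made with affy and GCRMA, per the submitters' processing notes, which name no version, and the log base was taken as 2. GCRMA can compress or inflate differences at low values. The table holds 13008 probe sets, a part of the array chosen by a rule not given here. Those with 1 symbol (11719) were named through the platform annotation updated to RefSeq GRCh38.p14, and the set of highest mean stood for a gene. A filter of 4 on at least 2 arrays removed 0 genes. Differences were fitted with limma 3.58.1 in R 4.3.3 (intensity trend, 3 groups, 6 arrays, 3 residual and 6.73 prior degrees of freedom), two-sided, with Benjamini-Hochberg adjustment over all genes, and checked on simulated data. P-values reflect only how these arrays varied, possibly through technical causes. The members and lists were chosen with earlier results of these data known. By rule, named genes were the 5 members, LIN28B, up to 4 called genes of largest change per list (or 2 as values), and the 3 nearest genes by centred values. Further genes were named outside this rule with their values known, among them MTOR, CCNG2, SGK2 and RPS6KB2, which did not pass. Lists held ligands, receptors, adaptors, PI3K subunits, phosphatases, AGC kinases, TSC and mTOR complexes, nutrient inputs, substrates, mannose 6-phosphate sorting, FOXO targets, glucocorticoid and osmotic genes, let-7 targets, IGF2 mRNA-binding proteins and cell type markers. Of the 112 pathway genes, 34 had a probe set named as matching more than its own transcript. Whether equal replicate numbers pair the arrays is not stated, and the main fit did not pair them. The deviations of replicate 1 correlated across genes at 0.181 between not induced and induced cells. They correlated at -0.057 and 0.016 between siRNA cells and those 2 groups. With 2 arrays a group these values cannot settle pairing.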

Additional observations from a re-analysis of the deposited data

How the results depend on the processing

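Of 26 pathway genes called between siRNA and not induced cells, 15 kept their call in all alternatives run, 11 lost it in some, and 0 reversed. The direction of the siRNA differences of IGF1R, IGF2R, PIK3R3 and SGK1 held in every alternative. Against 4 mock arrays as 1 control group, RPS6KB1 had 0.13 in place of -0.11, since that group includes the low induced arrays. In that fit 19 pathway genes rose in place of 14 and 24 fell in place of 12. Of all genes, 2110 rose in place of 1563 and 2180 fell in place of 1679. The called share of the 112 pathway genes was then no longer below that of all genes. Without the intensity trend 9 pathway genes rose in place of 14, and 1233 of all genes in place of 1563. With the replicate block 14 pathway genes rose and 16 fell against the cells not induced, and 1649 and 1773 of all genes; it reversed no value of the 5 genes.

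With 1 array left out at a time, its partner was taken to vary as much as arrays of other groups do. The siRNA difference from cells not induced then ran from -0.75 to -0.40 for IGF1R, -0.55 to -0.28 for IGF2R and 0.47 to 0.95 for SGK1. The induction difference ran from -0.23 to 0.11 for IGF1R, -0.13 to 0.15 for IGF2R and 0.047 to 0.52 for SGK1. The difference from induced cells ran from -0.69 to -0.34 for IGF1R. Pathway genes that rose against cells not induced numbered 6 (without siRNA replicate 2) to 14. Against induced cells 8 to 19 rose and 8 to 21 fell. Of all genes, 815 to 1640 rose and 849 to 1562 fell against cells not induced, 830 to 1970 rose and 872 to 1981 fell against induced cells, and 0 to 1 fell with induction. The cause of these shifts was not tested. The number of arrays, 2 a group, limits the precision of every value.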
